A study of Mus musculus with 12 samples.

Results

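Macrophages of MC38 tumors that carry much C1q and MHC class II RNA were picked out of scRNA-Seq data of tumor-infiltrating CD45+ cells by fixed limits on UMIs, the sequenced RNA molecules counted per cell. A cell had to show more than 200 and fewer than 5000 genes, at most 10% mitochondrial UMIs, at least 2 UMIs of Adgre1 (F4/80) and Csf1r together and at most 1 UMI of Folr2, a resident macrophage receptor. No UMI of the T cell genes Cd3d, Cd3e and Cd3g or of the division genes Mki67 and Top2a was allowed. Per 10000 UMIs of the cell, the sum of C1qa, C1qb and C1qc had to reach 30 and H2-Ab1 had to reach 20, while Arg1 and Cxcl9 each had to stay under 2. These limits were met by 8646 of the 128912 cells within the gene and mitochondrial limits, or 6.71% (95% exact interval 6.57 to 6.84), and by 16.1% (15.7 to 16.4) of the 53868 macrophage cells, meaning cells that met the Adgre1, Csf1r, Cd3, Mki67 and Top2a limits alone. The intervals cover counting error only. The members were thus selected on their measured RNA, and what the limits used is given below as a description.

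MC38, a colon adenocarcinoma line of C57BL/6 mice, had been implanted under the skin of C57BL/6 mice, which the study's methods describe as female. The mice received either vehicle or PF-06821497, an inhibitor of the histone methyltransferase EZH2 (EZH2i), at 100 mg/kg subcutaneously every day. CD45+ cells, the leukocytes, were taken with magnetic beads on day 17, after 7 or 16 days of dosing, which makes 4 groups of 3 mice each. No label read here ties the 12 library numbers of the deposited barcodes to the 12 mice, so no library was put in a group, EZH2i was not compared with vehicle, and no test was made. Values are given library by library or as a range over the 12.

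C1q is the recognition molecule of the classical complement pathway, built from the chains encoded by C1qa, C1qb and C1qc, and tissue macrophages are its main source. MHC class II molecules present peptides from engulfed material to CD4+ T cells. Their alpha and beta chains (H2-Aa with H2-Ab1, and H2-Eb1) assemble with the invariant chain Cd74, peptides are loaded with the help of H2-DM, and transcription of the whole set depends on the coactivator Ciita.

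The limits had picked the members on C1q, so its high level followed from them. C1qa stood at 4916 CPM (UMIs per 1000000 UMIs of the class) in the lowest library, 6111 at the median and 7495 in the highest. Its median in the T cells of the same libraries was 131.2 CPM. T cells stand here for RNA that does not belong to the cell, which holds only for genes that T cells do not make. Which genes T cells made was not tested. Cd74, which the limits did not use, spanned 8571 to 16687 CPM with a median of 12036, against 1899 CPM in T cells. The 12 macrophage markers together summed to 40455 to 73045 CPM, and all 12 were above 20 CPM at the median. Markers of lymphoid and tumor cells were low. The 6 B cell markers summed to 6.91 to 17.2 CPM, the 7 T cell markers to 4.30 to 35.5 CPM, the 6 tumor epithelial markers to 0 to 5.41 CPM, and the 6 NK cell markers to 0.933 to 50.9 CPM. Of the 11 conventional dendritic cell markers, which summed to 21.8 to 151.1 CPM, only the chemokine Ccl17 passed 20 CPM at the median, and the defining genes Flt3 and Zbtb46 stood at medians of 1.098 and 0.325 CPM. The 5 plasmacytoid dendritic cell markers summed to 941.5 to 1900 CPM, against a median of 411.9 CPM in T cells, and nearly all of it was Bst2, an interferon-induced gene, at a median of 1247 CPM, while the defining Siglech had 64 UMIs over all members. The 8 monocyte markers summed to 247.7 to 1828 CPM with a median of 934.7, and the 7 neutrophil markers to 28.7 to 819.7 CPM with a median of 75.1 and the highest value in library 4. T cells had higher medians of both, 1108 and 252.4 CPM. Library 4 also held far more heat shock RNA than the others, and results that it moves are given below with and without it.

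Members had a median of 58.9 UMIs of H2-Ab1 per 10000, with 10% of them below 26.8 and 10% above 112.1, and a median C1q sum of 134.9. The 243 members just inside the limit, at 20 to 22 per 10000, had medians of 51.3 for Cd74, 144.5 for the C1q sum and 207.5 for Apoe. The 290 cells just outside it, at 18 to 20 per 10000 with every other limit met, had medians of 46.9, 138.4 and 198.3.

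The C1q and MHC class II genes lie in gene clusters of the mouse genome (GRCm38, GENCODE M21). C1qb (chr4:136880129-136886187), C1qc (chr4:136889804-136893065) and C1qa (chr4:136895917-136898803) follow one another on the minus strand. H2-DMb1 (chr17:34153072-34160230, plus strand), H2-Ab1 (chr17:34257689-34269419, plus strand), H2-Aa (chr17:34282744-34287823, minus strand) and H2-Eb1 (chr17:34305867-34316674, plus strand) lie in the MHC. Stretches of 150 bases that end just before the transcription start are shown for 3 MHC class II genes that differ together below, because these genes share known promoter elements. H2-DMa had 2 entries with no match and is not shown. Capitals mark matches to the core of the X box, searched as AGNAACNGA, and of the Y box, searched as ATTGG, which are known sites of MHC class II promoters. Both strands were searched, and the letters were chosen after the sequences had been looked at. The sequences are from RefSeq on GRCm38.p6, 5′ to 3′ on the strand of the gene, and end before the RefSeq start. For H2-DMb1 this start lies inside the gene as GENCODE gives it, so most of that window, with both marked matches, is inside the GENCODE gene.
H2-Eb1 (chr17:34305717-34305866, plus strand): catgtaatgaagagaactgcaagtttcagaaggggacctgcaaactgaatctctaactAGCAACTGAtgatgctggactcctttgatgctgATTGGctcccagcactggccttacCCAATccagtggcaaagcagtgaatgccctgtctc
H2-Aa (chr17:34287824-34287973, minus strand): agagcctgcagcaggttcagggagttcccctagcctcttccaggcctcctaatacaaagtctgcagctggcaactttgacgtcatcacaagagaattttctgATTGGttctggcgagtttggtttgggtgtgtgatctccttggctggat
H2-DMb1 (chr17:34153041-34153190, plus strand): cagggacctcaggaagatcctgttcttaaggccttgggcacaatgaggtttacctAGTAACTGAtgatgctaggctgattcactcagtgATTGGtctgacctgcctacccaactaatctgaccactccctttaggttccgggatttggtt

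The X box letters began 92 bases before the start of H2-Eb1 and 95 bases before that of H2-DMb1, and did not occur in the window of H2-Aa. Only these exact letters were searched, so an X box with other letters in the window of H2-Aa would be missed. The Y box letters began 59, 48 and 61 bases before the starts of H2-Eb1, H2-Aa and H2-DMb1 on the gene's own strand, and H2-Eb1 held a further match on the opposite strand at 35 bases. Over all 32851 promoter entries of the table, 2.47% held the X box letters in a window of this length, 24.5% the Y box letters, and 0.554% both. Of the 4 MHC class II genes called higher below whose entries were searched, 2 held the X box letters and 3 the Y box letters. Of the 14 other genes called higher and searched, 2 and 7 did. Entries on the chromosome of Cd74 were left out of these searches but kept in the shares over all entries. The letters were chosen after the shown sequences had been looked at, so the shares over all entries do not test these counts. A match is a run of letters and not evidence of binding.

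The members' share of macrophage cells differed widely between libraries. In libraries 1 to 12 it was 12.7%, 14.8%, 18.4%, 11.9%, 16.6%, 21.7%, 4.77%, 18.7%, 12.3%, 10.5%, 18.2% and 19.1%, from 491, 774, 632, 558, 1570, 2653, 164, 435, 363, 200, 480 and 326 members. Library 7 stood lowest, with an upper bound of 5.54% against a median of 15.7% over the libraries. Library 6 stood highest and gave the most members, but also the shallowest, with a median of 2152 UMIs per member against 21226 in library 8. Because Arg1 and Cxcl9 were limited per 10000 UMIs, a member of median depth could hold no UMI of either in libraries 5 and 6 and up to 4 in library 8. The limits were therefore also applied after every cell had been thinned at random to 2000 UMIs, which left out 1225 members. The share was then 20.3% of macrophage cells, and library 7 was again lowest at 7.14%. Library 6 was highest at 24.9%, but close to library 3 at 24.7% and library 5 at 24.1%. In library 6 the cut at 2000 UMIs left out 14494 of the 37413 cells within the gene and mitochondrial limits. Of the 7421 members with enough UMIs, 49.8% still met the limits, and they made up 56.9% of the 6487 cells that met them after thinning. Of the 3727 members that no longer met them, 89.1% had fewer than 2 UMIs of Adgre1 and Csf1r left.

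**Figure D1:**
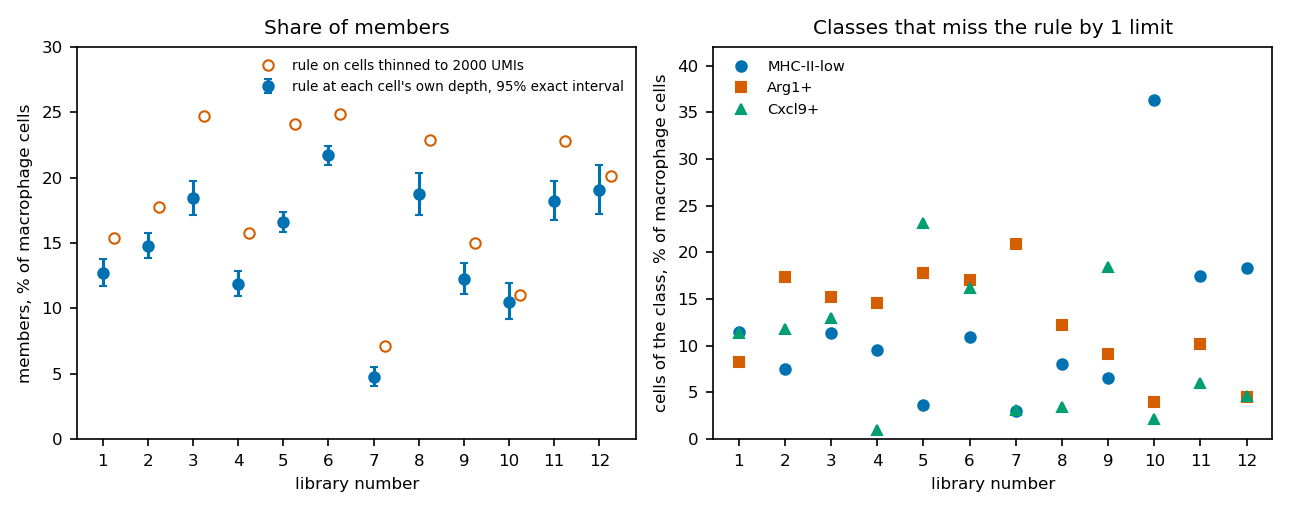
Left, members as % of macrophage cells (y axis) in each of 12 libraries (x axis, library number), with filled circles and 95% exact binomial bars for the limits at each cell's own depth and open circles for cells thinned to 2000 UMIs. Right, the share of cells that miss 1 limit only. Library 7 is lowest in both sets of circles, at 4.77% and 7.14%, and MHC-II-low cells reach 36.3% in library 10.

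Comparison cells were macrophage cells that met every limit except 1. MHC-II-low cells (5303) had less than 20 H2-Ab1 per 10000, Arg1+ cells (7897) at least 2 Arg1, and Cxcl9+ cells (6724) at least 2 Cxcl9. Only 114 cells missed the Folr2 limit alone and 997 the C1q limit alone. MHC-II-low cells made up 38.6% of members and MHC-II-low cells together at the median library, 18.0% in library 5 and 77.6% in library 10. Their share of macrophage cells ran from 3.05% in library 7 to 36.3% in library 10. Cxcl9+ cells ran from 0.957% in library 4 to 23.1% in library 5, and Arg1+ cells from 3.99% in library 10 to 20.9% in library 7. After thinning, libraries 5 and 10 remained the ends of the MHC-II-low fraction, at 17.6% and 80.6%.

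For each class, UMIs were summed per library and scaled to CPM, and a difference is the median over 12 libraries of log2 of the ratio after adding 10 CPM to both, which understates the difference of low genes. A gene was called higher or lower when the median difference was at least 1 (2-fold) and the sign was the same in all 12 libraries. Genes with a mean of at least 20 CPM were compared, without the 14 genes of the limits. The cells had been divided by their own RNA, so these calls describe the classes and support nothing.

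Against MHC-II-low cells, the genes called higher in the members included 6 of the MHC class II pathway and the monocyte genes Ccr2, Ly6c2 and Plac8, and the genes called lower included Fcrls, Gpnmb, Gas6 and Ctsd. Of 5266 genes compared, 23 (0.437%) were called higher and 17 (0.323%) lower. The median difference over all of them was -0.06.

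The MHC class II pathway differed most. Of 9 listed genes compared, 6 were called higher, none lower, and the median difference was 1.73. H2-Eb1, a class II beta chain, had a lowest, median and highest level of 4108, 5466 and 7170 CPM in the members, against 249.7, 519.9 and 979.6 CPM in MHC-II-low cells, a difference of 3.33 (2.25 to 4.08 over libraries). The groups did not overlap, with library 10 the lowest of the members. H2-Aa, the alpha chain that pairs with H2-Ab1, had 4681, 5936 and 7019 CPM against 358.1, 692.3 and 1430 CPM, a difference of 2.98. Cd74 had a median of 12036 CPM against 2210 CPM and differed by 2.53 (1.71 to 3.09), again without overlap. H2-DMb1, a chain of the peptide loading factor, stood at 604.6 CPM against 159.5 CPM and differed by 1.85, and its partner H2-DMa differed by 1.16. H2-DMb1 has a close copy, H2-DMb2, with which reads may be shared. Ciita, the coactivator of the pathway, stood at 18.2, 49.2 and 79.4 CPM against 1.59, 6.45 and 14.5 CPM and differed by 1.73. The lowest library of the members was above the highest of the MHC-II-low cells for Ciita as well.

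The other 3 compared genes of the pathway were not called. Ctss, the protease that degrades the invariant chain, differed by 0.12 with 4027 CPM in the members. Rfxap, a subunit of the complex that binds these promoters, differed by -0.02. March1, a ligase that marks class II molecules for degradation, differed by 0.04. C1q, which both classes had to carry, differed little, with C1qa at 6111 CPM in the members and 6644 CPM in MHC-II-low cells.

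In shares of cells thinned to 1000 UMIs, 95.9% (95.5 to 96.3) of members held a UMI of H2-Eb1, against 36.3% (35.01 to 37.6) of MHC-II-low cells and 23.3% (22.2 to 24.4) of T cells. Without thinning the shares were 99.6%, 68.6% and 38.5%, at median depths of 5186, 6192 and 2783 UMIs. Ciita was found in 4.78% of thinned members, 0.646% of MHC-II-low cells and 0.953% of T cells, so its share in MHC-II-low cells was no higher than in T cells. Thinning left out 45 members, 37 MHC-II-low cells and 573 T cells.

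**Figure D2:**
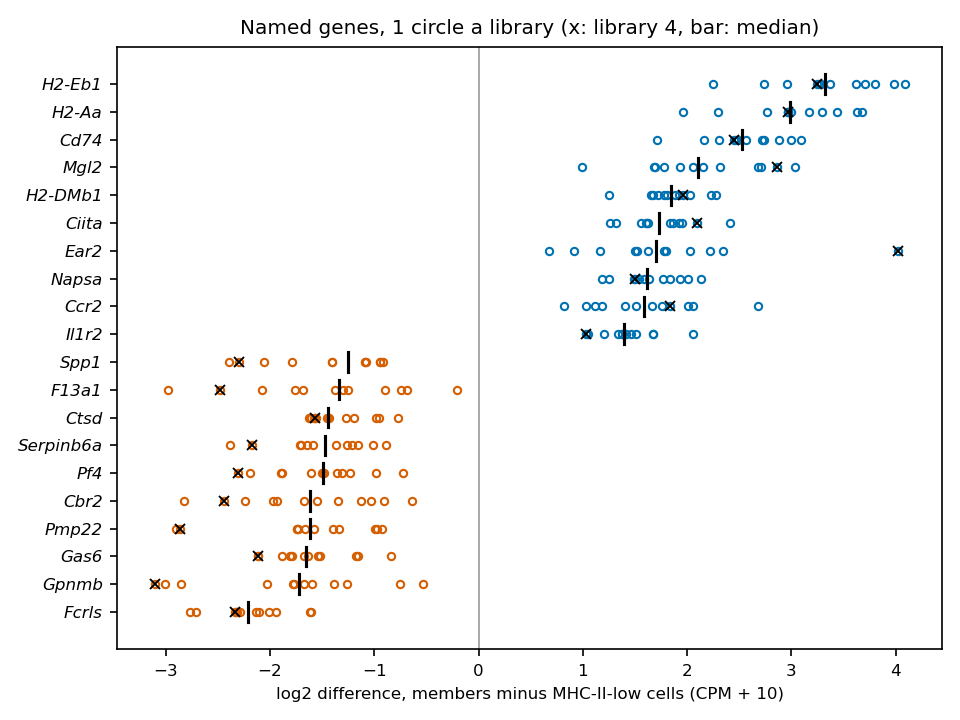
The log2 difference of members minus MHC-II-low cells (x axis, CPM plus 10) for the 10 highest and 10 lowest called genes (y axis), with a circle for each of 12 libraries, a cross on library 4 and a bar at the median. H2-Eb1 leads at 3.33 and Fcrls ends at -2.21, and no circle of a gene crosses 0.

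Genes of monocytes, the blood cells from which many tumor macrophages derive, were among those called higher. Ccr2, the receptor that brings monocytes into tissue, had 102.9, 194.4 and 517.1 CPM (lowest, median, highest) in the members against 29.3, 60.5 and 137.7 CPM in MHC-II-low cells, and differed by 1.59. The ranges overlapped between libraries, but the members were higher within each of the 12. Ly6c2, a surface marker of inflammatory monocytes, differed by 1.34 (0.15 to 2.74) and Plac8 by 1.26 (0.07 to 2.29), so both were close to 0 in at least 1 library. Both were also present in T cells, at medians of 356.2 and 489.6 CPM, above the members' 243.6 and 338.9 CPM. Whether T cells made them was not tested, so these values set no level of free RNA. Mgl2, a galactose-type lectin, stood at 145.2 CPM against 23.7 CPM and differed by 0.99 to 3.03 over libraries. Napsa, an aspartic protease, differed by 1.61, Ear2, a ribonuclease, by 1.70 (4.03 in library 4, and 1.63 at the median without it), and the decoy receptor Il1r2 by 1.40. Il1b, the inflammatory cytokine that Il1r2 binds, stood at 1396, 2551 and 3753 CPM against 558.4, 1244 and 1932 CPM and differed by 1.12, with overlapping ranges. The 8 monocyte markers, which include Ccr2, Ly6c2 and Plac8, all had UMIs in the members. Their sum was 247.7 to 1828 CPM in the members, 147.4 to 935.0 CPM in MHC-II-low cells and 674.1 to 1527 CPM in T cells. Its medians were 934.7 CPM in the members, 300.2 CPM in MHC-II-low cells, 1038 CPM in Arg1+ cells and 754.2 CPM in Cxcl9+ cells. Ccr2 had medians of 228.0 CPM in Arg1+ cells and 171.7 CPM in Cxcl9+ cells, and Il1b of 2392 and 2224 CPM. These levels were thus not particular to the members. Among the other monocyte markers, Chil3 was not called (0.66, higher in 10 of 12 libraries), and Vcan, Hp and Gm9733 were too low to be compared. The remaining marker of the 8 is not reported here. The part of monocytes in these differences was not tested. Reads of Ear2 and Ly6c2 may be shared with close copies.

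Ccl17, a chemokine that dendritic cells and some macrophages make, differed by 1.25, with 6.18 to 126.0 CPM in the members and 0 to 35.9 CPM in MHC-II-low cells. In T cells it stood at a median of 75.9 CPM, and after thinning it was found in 1.90% of members and 4.17% of T cells, so its share in members was below the level in T cells. It supplied most of the dendritic cell markers' sum, while Flt3 and Zbtb46 were near 0 in the members and in MHC-II-low cells. This sum had medians of 56.9 CPM in the members, 11.8 CPM in MHC-II-low cells and 372.3 CPM in T cells. The members were also called higher in Jaml (1.38), Klrb1b (1.36), H2-M2 (1.35), Qpct (1.27), Tnip3 (1.25), Dnase1l3 (1.25), Rnase6 (1.12) and Plbd1 (1.06), which complete the 23 genes.

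Fcrls, an Fc receptor-like gene known from microglia and other resident macrophages, differed most in the other direction. It had 51.8, 100.9 and 121.4 CPM in the members and 218.1, 431.2 and 732.4 CPM in MHC-II-low cells, a difference of -2.21 (-2.77 to -1.61), and the groups did not overlap. After thinning it was found in 7.91% of members and 31.4% of MHC-II-low cells, against 1.17% of T cells. Gpnmb, a glycoprotein of lipid-laden macrophages, differed by -1.72, with 37.3 CPM against 142.4 CPM. The secreted Spp1 (osteopontin) differed by -1.25 and the lysosomal protease Ctsd by -1.45, with 1333 CPM against 3274 CPM. Gas6, which bridges dying cells to the receptors Axl and Mertk, differed by -1.66, with 19.4, 54.0 and 71.2 CPM against 75.4, 173.9 and 262.2 CPM. Its receptors differed by 0.17 (Axl) and -0.18 (Mertk). The chemokine Pf4 differed by -1.49, the growth factor Igf1 by -1.22, the clotting factor F13a1 by -1.34, and the heme oxygenase Hmox1 by -1.11. Also called lower were Pmp22 (-1.62), Cbr2 (-1.61), Serpinb6a (-1.48), Ctla2a (-1.14), Syngr1 (-1.11), Cela1 (-1.08), Vat1 (-1.06) and Igfbp4 (-1.02).

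Of all 5266 genes compared, 34.3% were above 0, beside which the counts of the lists can be read. Of 12 phagocytosis and scavenger receptor genes compared, 1 (Gas6) was called lower, 2 were above 0, and the median was -0.41. The mannose receptor Mrc1 (-0.95) and Stab1 (-0.84) were lower in all 12 libraries. Of 26 lipid and lysosome genes, 3 were called lower, 4 were above 0, and the median was -0.25. Trem2, a lipid receptor, stood at 486 CPM against 767.2 CPM (-0.60). Apoe, a lipid carrier, stood at 18228 CPM against 22015 CPM and was lower in 10 of 12 libraries (-0.28). Among 21 transcription factors none was called, the median was 0.02, and Maf (-0.90) and Klf2 (-0.76) stood lowest while Spi1 (0.06) was level. Of 21 chemokines and receptors, Ccr2 was called higher and Pf4 lower, 10 were above 0, and the median was -0.01. The monocyte attractants Ccl7 (277.6 CPM against 485.3 CPM), Ccl12 (-0.83) and Ccl2 (-0.65) stood below 0. Ccl5 (466.5 CPM against 221.0 CPM, 0.96) and Cxcl2 (0.49) were higher in all 12 libraries. Ccl8 had 302.7 CPM against 685.3 CPM at the median (-1.29) and was lower in 11 of 12 libraries. Among 9 costimulation and checkpoint ligands none was called, with a median of 0.23. Cd86, the main costimulator of macrophages, stood at 217.6 CPM against 166.0 CPM and was higher in all 12 libraries (0.35). Of 11 complement genes beyond C1q none was called, with a median of -0.31, C3 at 0.60 and Cfb at 0.64.

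**Figure D3:**
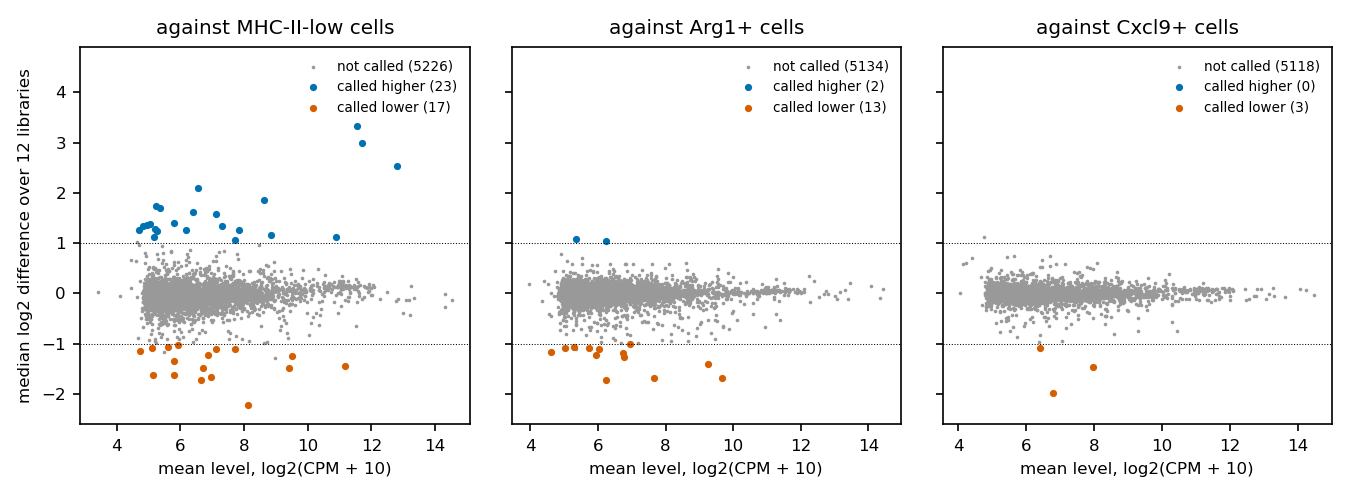
The median log2 difference over 12 libraries (y axis) against the mean level of both classes (x axis, log2 of CPM plus 10) for every gene compared, in the 3 comparisons, with called genes colored and dotted lines at 2-fold. Called genes number 40, 15 and 3 from left to right, and the 3 highest points against MHC-II-low cells are H2-Eb1, H2-Aa and Cd74.

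Against Arg1+ cells, 13 genes were called lower in the members, among them Spp1, Mmp12, Fn1, Ccl24 and Bnip3. Arg1, an arginase that some tumor macrophages make in quantity, had divided the 2 classes. Of 5149 genes compared, 2 (0.0388%) were called higher and 13 (0.252%) lower, and the median over all was 0.00. Of the glycolysis and hypoxia list, 2 of the 19 genes compared were called lower, and all 19 were below 0 with a median of -0.68. These were Bnip3, a mitophagy gene that low oxygen induces, at 49.7 CPM against 150.4 CPM (-1.26), and Ndrg1, at 20.03 CPM against 66.2 CPM (-1.10). The glucose transporter Slc2a1 differed by -0.94, the lipid droplet gene Hilpda by -0.95, Pgk1 by -0.94, Ldha by -0.55, and Vegfa by -0.62, and each was lower in 12 of 12 libraries.

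Among 10 matrix genes, 2 were called lower, with a median of -0.50. Mmp12, the macrophage elastase, had 21.0, 98.5 and 390.6 CPM in the members and 62.4, 281.8 and 822.3 CPM in Arg1+ cells (-1.69), and Fn1 (fibronectin) 233.2, 331.4 and 496.1 CPM against 619.0, 859.9 and 1448 CPM (-1.40). The ranges of Mmp12 overlapped and those of Fn1 did not. The chemokine Ccl24, an eosinophil attractant, differed by -1.72, with 23.4 CPM against 107.5 CPM at the median, and Spp1 by -1.68. Slc7a2, which imports arginine, stood at 47.7 CPM against 144.3 CPM (-1.19). The clotting factors F10 (-1.23) and F7 (-1.08), Tnfrsf9 (4-1BB, -1.16, at 4.44 CPM against 24.1 CPM), Rgcc (-1.10), Inhba (-1.06) and Adam8 (-1.01) complete the 13. The 2 called higher were Dnase1l3, a secreted DNase (1.08), and Ighm (1.04), the heavy chain of IgM, at 92.1 CPM against 37.3 CPM, while the 6 B cell markers together reached at most 17.2 CPM in the members. No gene was called higher when library 1, 7, 8, 9 or 12 was left out. None of the 10 MHC class II genes compared was called here, and all 10 were above 0, beside 52.0% of all genes, with a median of 0.14. H2-Eb1 (0.35), H2-Aa (0.25), Cd74 (0.20), H2-DMb1 (0.21) and Ciita (0.21) were higher in 12 of 12 libraries.

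Against Cxcl9+ cells, the genes called lower in the members were Serpina3g, Gbp2 and Dnase1l3. Cxcl9, a chemokine induced by interferon gamma, had divided these classes. Of 5121 genes compared, none (0%) was called higher and 3 (0.0586%) were called lower. Serpina3g, a protease inhibitor, had 14.1, 28.8 and 101.0 CPM in the members and 101.8, 172.8 and 239.1 CPM in Cxcl9+ cells (-1.99), with no overlap. Gbp2, an interferon-induced GTPase, had 81.0, 111.0 and 240.6 CPM against 248.4, 369.6 and 455.7 CPM (-1.46), also with no overlap. Dnase1l3 differed by -1.09, with 62.9 to 211.5 CPM in Cxcl9+ cells, 20.9 to 117.1 CPM in the members and 2.19 to 53.8 CPM in Arg1+ cells. The range of the members overlapped both others, which did not overlap each other. Of 22 interferon response genes compared, 1 was called and 1 (Irf9) was above 0, with a median of -0.39 beside 0.00 over all genes. Cxcl10 stood at 446.7 CPM against 792.5 CPM (-0.74). The costimulator Cd40 differed by -0.57, the checkpoint ligand Cd274 (PD-L1) by -0.47, and C3 by -0.69, each lower in 12 of 12 libraries. All 10 MHC class II genes compared were below 0, while 51.6% of all genes were above 0. Their median was small, at -0.12, led by Ciita at -0.52. Ciita was lower in 12 of 12 libraries, but Rfxap in only 8. When the UMIs of all libraries were summed instead, 5 genes were called higher, named here because they are so few: S100a8 (1.41), S100a9 (1.18), Retnla (1.56), Hspa1b (1.62) and Hspa1a (1.37). They were higher in 8, 8, 8, 10 and 11 of 12 libraries. Library 4 gave 558 members but only 45 Cxcl9+ cells, and without it the summed differences were 0.72, 0.36, 1.58, 0.38 and 0.64 in the same order, so Retnla alone was called.

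**Figure D4:**
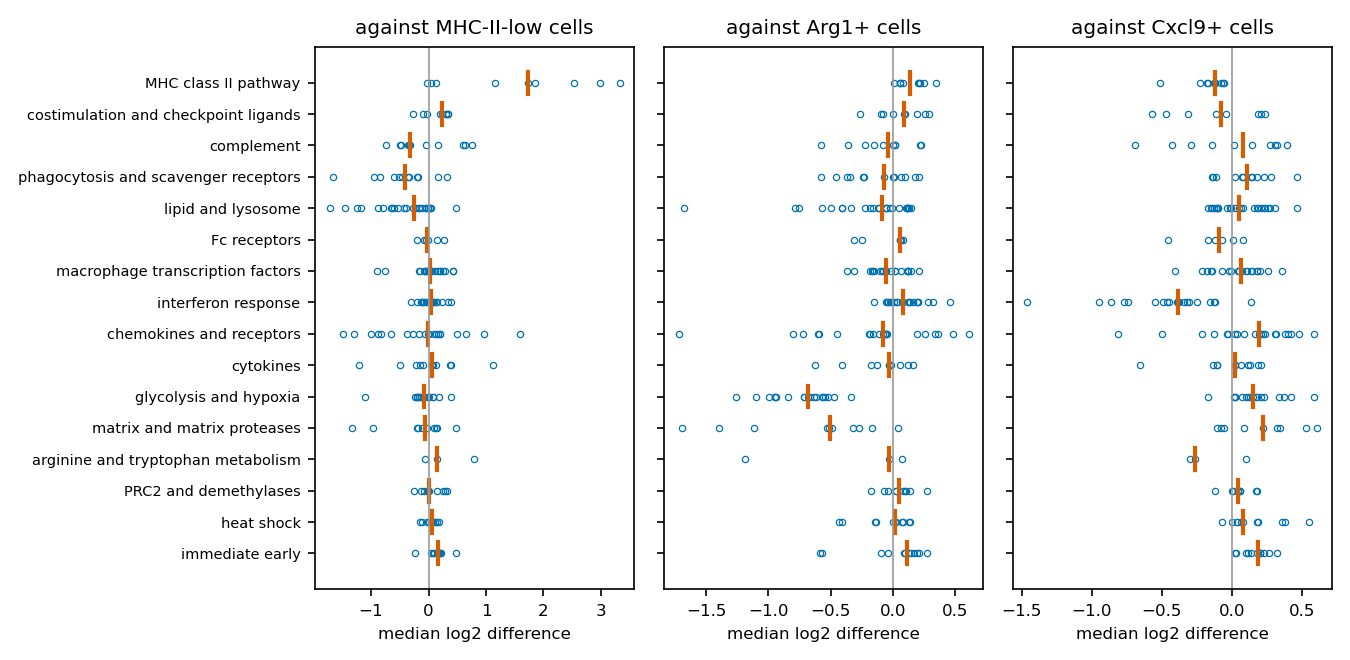
Median log2 differences (x axis) of each listed gene (circles) and the median of each list (bars), for members against MHC-II-low, Arg1+ and Cxcl9+ cells, with a different x scale in each panel. The MHC class II list has its median at 1.73 on the left, glycolysis and hypoxia at -0.68 in the middle, and interferon response at -0.39 on the right.

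The 3 comparisons share the members' libraries, so their values are given side by side only. Spp1 differed by -1.25 and -1.68 against MHC-II-low and Arg1+ cells, and stood at 407.2 CPM in the members and 374.8 CPM in Cxcl9+ cells. Fcrls was at 100.9 CPM in the members, 110.5 CPM in Arg1+ cells, 76.9 CPM in Cxcl9+ cells and 431.2 CPM in MHC-II-low cells.

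Ezh2, the target of the inhibitor, was low in the members, with 16.3, 22.7 and 30.9 CPM at the lowest, median and highest library, against a median of 77.5 CPM in T cells. It was found in 2.43% of thinned members and 6.26% of thinned T cells. Of the polycomb repressive complex 2 and demethylase list, 10 genes were compared in each comparison and none was called, with medians of 0.00, 0.05 and 0.04. The list also holds the cell cycle inhibitors Cdkn1a and Cdkn2a, which are neither subunits nor demethylases. Cdkn1a is among the 10 compared, at 553.9 CPM in the members and differences of 0.25, -0.17 and 0.17. Cells with a UMI of Mki67 or Top2a had been left out of the members but not of the T cells. Cd274 was found in 7.14% of thinned members and 7.15% of T cells, so its share in members was no higher than in T cells. Whether T cells made Cd274 was not tested, so this sets no level of free RNA for it. Of Vsig4, Cd163, Timd4 and Marco, which mark some resident macrophages, 3, 34, 17 and 12 UMIs were counted over all members, and 1 UMI of Ido1. Other receptor genes of macrophages were present, with medians of 197.4 CPM for Mrc1, 140.3 for Stab1, 76.5 for Mertk and 40.6 for Siglec1. Fcrls, named above with resident macrophages, stood at 100.9 CPM. Levels of Vsig4, Cd163, Timd4 and Marco in the comparison cells are not given, so no lack particular to the members is meant.

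Most genes had like levels in the members of all libraries, and a few differed widely. Over 5129 genes, the range from the lowest to the highest library had a median of 0.68 on the log2 scale (CPM plus 10), and 93 genes (1.81%) spanned more than 2. The MHC class II list summed to 23294 CPM in library 6 and 36469 CPM in library 8, or 1.57-fold. Heat shock genes summed to 4979 CPM in library 5 and 11277 CPM in library 4, with 7571 CPM in the next library.

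Library 4 stood apart. Hspa1b, a stress-induced chaperone, stood at 1798 CPM there and at 8.18 to 100.8 CPM in the other 11 libraries, and its range fell from 6.64 to 2.61 without library 4. Hspa1a, a near-identical copy with which it may share reads, stood at 2148 CPM there and at most at 314.0 CPM elsewhere. The neutrophil genes S100a8 and S100a9 stood at 304.5 and 391.0 CPM in library 4, and at most at 82.6 and 88.8 CPM elsewhere. Cxcl3, a neutrophil attractant, stood at 171.3 CPM there. The 7 neutrophil markers, which include S100a8 and S100a9, summed to 819.7 CPM there. Every class had its highest sum in library 4, at 1283 CPM in T cells and 796.7 CPM in MHC-II-low cells. Arg1+ cells had 711.5 CPM there and Cxcl9+ cells 332.8 CPM. The members lay below the T cell value, but library 4 held only 35 T cells and 45 Cxcl9+ cells, against 558 members. The part of neutrophil RNA in these values was not tested. Without library 4, the members' share of macrophage cells was 16.5%, H2-Eb1 differed by 3.37 from MHC-II-low cells and Fcrls by -2.13.

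Other genes had their extremes in other libraries. Chil3, a chitinase-like protein of monocytes, stood at 10.7 CPM in library 3 and 527.9 CPM in library 10. The chemokine Ccl8 ran from 33.9 CPM in library 8 to 1003 CPM in library 2, with 689.0 and 552.8 CPM in libraries 5 and 6. Ccl24 ran from 1.82 CPM in library 10 to 241.7 CPM in library 7. Retnla, a gene of type 2 responses, had no UMI in library 9 and stood at 201.8 CPM in library 12 and 163.2 CPM in library 7. Areg (amphiregulin), an epidermal growth factor family ligand, stood at 265.3 CPM in library 10 and 104.1 CPM in library 12, and at 7.53 to 57.7 CPM elsewhere. Library 7, where members were fewest, thus also had the highest Ccl24, and library 10, where MHC-II-low cells were most frequent, had the highest Chil3 and Areg and the lowest H2-Aa, H2-Eb1 and Ciita of all members.

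**Figure D5:**
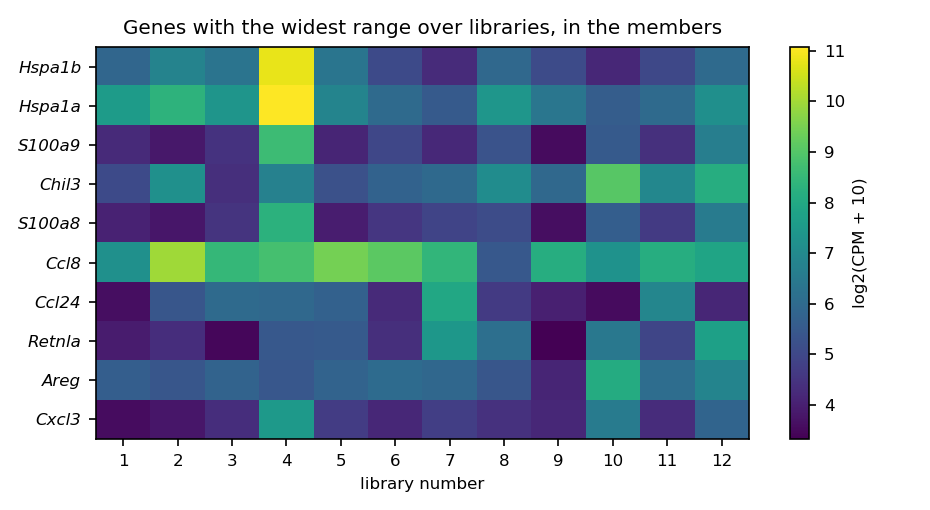
Levels in the members, as log2 of CPM plus 10 (color), of the 10 genes with the widest range (rows) in each of 12 libraries (columns). Hspa1b and Hspa1a are highest in library 4, at 1798 and 2148 CPM, Chil3 and Areg in library 10, Ccl24 in library 7 and Ccl8 in library 2.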

How the data were processed

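CD45+ cells of 12 mice were profiled with 10x Genomics 3' v3 libraries. The authors deposited 1 matrix of UMI counts for 140639 barcodes and 31053 genes, without normalization; the matrix header names software version 3.0.2, whereas the submitters' processing notes name Cell Ranger 2.1.1, Seurat and the build mm10. Cell Ranger's settings and annotation were not given in the sources used here. Limits on genes per cell and mitochondrial UMIs are those of the study's methods, whose later scaling in Seurat does not enter the deposited counts. Library numbers are the suffixes of the barcodes. In all, 2261 barcode sequences occur in 2 or more libraries (4547 barcodes, 3.23%), and 266 members (3.08%) carry such a sequence.

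The members, gene lists and limits were chosen with earlier results of these data known. The comparison classes, the 20-cell minimum per library (met in all 12), the 20 CPM filter and the pseudocount of 10 CPM are described with the results. T cells (6448), used as the level of free RNA for genes that they do not make, had at least 2 UMIs of Cd3 genes. They had none of Adgre1 or Csf1r. Named genes are the 10 called highest and lowest per comparison, the 10 with the widest range over libraries, and list members, without ribosomal, mitochondrial, sex-linked, haemoglobin and unnamed genes. The other genes called were named after their values were seen. Doublets were not called or removed. Cells were thinned with fixed seeds, share intervals are exact (Clopper-Pearson, 95%), and the comparison code was tested on simulated data. The promoter table was matched by symbol. Each library gave 164 to 2653 members, at medians of 2152 to 21226 UMIs and 1028 to 3926 genes, which sets the precision of its values. Sums and intervals were computed in Python (version 3.11.15) with pandas (2.3.3), scipy (1.17.1) and numpy (2.4.6), and plots were drawn with matplotlib (3.10.9). Alternatives were other limits on mitochondrial UMIs, H2-Ab1, C1q, Adgre1 with Csf1r, depth, doublet genes and shared barcodes, other pseudocounts and filters, and leaving out each library. Results for some genes are not reported here.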

Additional observations from a re-analysis of the deposited data

Results flagged for a closer look

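Y-linked transcripts, which no comparison used, were present in the members of 6 libraries, at 135.4 to 229.5 CPM for Ddx3y, Eif2s3y, Kdm5d and Uty together. In the other 6 libraries the members held 0 UMIs of these genes, while Xist stood at 550.2 to 803.7 CPM there and at 0 UMIs in the libraries with Y-linked transcripts. The study's methods describe the mice as female. The result was singled out because it is a signal in data outside the main measurement, and libraries were not grouped by it.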

How the results depend on the processing

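The members numbered 8646 and made up 16.1% of macrophage cells. With a mitochondrial limit of 5% they numbered 5282, and with at least 4 UMIs of Adgre1 and Csf1r 5088 (15.2%). Their share was 11.5% with an H2-Ab1 limit of 40 per 10000, 15.1% with a C1q limit of 60 per 10000, 15.0% among cells with at least 2000 UMIs, and 20.3% with cells thinned to 2000 UMIs, an alternative chosen after seeing the data. The 2 genes called higher than in Arg1+ cells fell to 0 with the mitochondrial limit of 5%, the H2-Ab1 limit of 40, a pseudocount of 50 CPM or summed UMIs, and to 1 with at least 4 UMIs of Adgre1 and Csf1r or with thinned cells. A pseudocount of 1 CPM gave 32 genes lower than in MHC-II-low cells, 21 lower than in Arg1+ cells and 7 lower than in Cxcl9+ cells. A pseudocount of 50 CPM gave 8 higher and 6 lower than in MHC-II-low cells and 4 lower than in Arg1+ cells, and summed UMIs gave 5 higher than in Cxcl9+ cells, or 1 without library 4 (a setting chosen after seeing the data).

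Leaving out each library in turn gave 5993 to 8482 members, 14.4% (without library 6) to 16.8% (without library 7) of macrophage cells, 22 to 25 genes higher and 15 to 19 lower than in MHC-II-low cells, 0 to 2 higher and 11 to 17 lower than in Arg1+ cells, and 0 higher and 3 to 5 lower than in Cxcl9+ cells. No gene was called higher than in Arg1+ cells without library 1, 7, 8, 9 or 12, and 1 was without library 3 or 11. Without library 3, 5, 6, 7 or 11, 5 were called lower than in Cxcl9+ cells. Of the single-gene differences, 428 of those under the other alternatives moved by less than the spread between libraries and 27 by more, and none changed sign among the called. No paired analysis of mice was made, because no label ties a library to a mouse and no groups of mice were compared. The differences between classes were already taken within each library.

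Depth limits the low genes most, since a library held as few as 164 members. The number of UMIs that a limit per 10000 allows differed with depth, and doublets and free RNA were not removed. The members were cut from the same RNA that the comparisons describe.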
